A study of Mus musculus with 10 samples.

Results

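Ccl2, Ccl7, Ccl8, Ccl12 and Ccl24 encode CC chemokines, and these 5 genes of the 31053 in the count matrix were taken by name as a list of monocyte-attracting chemokines. The rule uses no measured value, but the list was drawn up with earlier results of these data known. CC chemokines are small secreted proteins with 2 adjacent cysteines near their start that attract leukocytes through G protein-coupled receptors. Ccl2, Ccl7 and Ccl12 act on Ccr2, the receptor that classical monocytes use to leave the bone marrow and enter tissue. Ccl24, also called eotaxin-2, acts on Ccr3 and is better known as an attractant of eosinophils than of monocytes, and mouse Ccl8 is known mainly as a ligand of Ccr8. In the brain, microglia and the macrophages of its borders (meninges, perivascular space and choroid plexus) are known producers of CC chemokines.

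Leukocytes were sorted by the authors from whole mouse brains by their CD45 and sequenced as single cells with 10x Genomics chemistry, and 45472 cells of 10 libraries were analysed here. There was 1 library of pooled mice of both sexes per genotype and age, from WT and Nlrp3KO mice (NLRP3.KO in the labels) aged 3, 6 or 9 months and from APP/PS1 and Nlrp3KO APP/PS1 mice aged 3 or 9 months. Nlrp3KO mice lack Nlrp3 in every cell of the body, APP/PS1 mice express mutant amyloid precursor protein and mutant presenilin-1 in neurons, and the groups were littermates of a cross of both lines. Brains of all groups were dissociated in the cold with actinomycin D, which blocks new transcription. WT below also stands for Nlrp3WT APP/PS1 mice where 2 Nlrp3 genotypes are compared, and non-diseased stands for mice without the APP/PS1 transgenes.

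The authors annotated 40547 of these cells as microglia in 6 states, namely homeostatic (HM), transitioning to disease-associated (TM), disease-associated (DAM), interferon-response (IRM), proliferating (PM) and immediate-early gene (IEG) microglia. Immediate-early genes are known to respond to tissue dissociation as well as to stimuli in the animal. They named 1109 other cells border-associated macrophages, as a cluster BAM (725 cells), a cluster BAM Lyve1 (382 cells) and 2 proliferating cells, with 54 to 194 border macrophages per library. Microglia of a library held 9357431 to 35107144 unique molecular identifiers (UMIs, 1 per captured RNA molecule). Levels are given in CPM, the usual unit of a gene's UMIs over all UMIs of the same cells, with 95% exact Poisson intervals that cover counting error only, and levels are not compared between genes. Nlrp3 had 0 UMIs in the microglia of all 5 Nlrp3KO libraries and 390 to 1425 UMIs in those of the Nlrp3WT libraries. Each of the 3 batches held a single age, which leaves age and batch inseparable, and 246 of 45225 cell barcodes occurred in more than 1 library.

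The clusters were checked against marker genes. P2ry12, a microglial receptor, reached between 1859 CPM (TM) and 3495 CPM (HM) in the microglial states, against 160 CPM in BAM and 326 CPM in BAM Lyve1. The macrophage markers Mrc1 and Pf4 reached 2687 and 2968 CPM in BAM Lyve1 and 554 and 647 CPM in BAM. Lyve1 itself had 614 CPM in BAM Lyve1 and 21.3 CPM in BAM. Ccr2, a monocyte marker in the list used, had 1115 CPM in BAM, where 62.8% of cells carried it, against 1384 CPM in the cells named monocytes and 3.61 CPM in BAM Lyve1. The other 4 monocyte markers were far lower in BAM than in monocytes, at 86.8 against 1762 CPM for Ly6c2, 177 against 2946 CPM for Plac8, 11.2 against 1679 CPM for Chil3 and 0.39 against 140 CPM for Vcan. As a sum, the cluster named BAM therefore held much Ccr2 but less of the other monocyte markers than the monocytes did. BAM Lyve1 had 0 UMIs of Ly6c2, Plac8 and Vcan and 1 of Chil3. Whether the same BAM cells carried Ccr2 and the other markers, and how many are resident macrophages, was not tested.

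The shared architecture of the 5 genes can be read in their coding sequences, and 66 bases of each are printed so that the cysteine codons that define the family can be compared. They were read from the GRCm38 genome and the GENCODE annotation, run from 5′ to 3′ on the coding strand, span the junction of 2 exons, and have the codons of the 2 adjacent cysteines in capitals.
Ccl2: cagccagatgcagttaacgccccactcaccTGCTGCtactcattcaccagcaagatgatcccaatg
Ccl7: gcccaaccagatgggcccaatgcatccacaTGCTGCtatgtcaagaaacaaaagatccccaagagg
Ccl8: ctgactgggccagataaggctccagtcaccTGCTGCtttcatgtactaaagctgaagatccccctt
Ccl12: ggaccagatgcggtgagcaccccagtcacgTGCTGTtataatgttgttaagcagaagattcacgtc
Ccl24: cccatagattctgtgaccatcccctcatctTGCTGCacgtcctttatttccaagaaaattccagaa

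Each gene has 3 exons. Ccl2 (ENSMUSG00000035385, chr11:82035571-82037453), Ccl7 (ENSMUSG00000035373, chr11:82045712-82047525), Ccl12 (ENSMUSG00000035352, chr11:82101845-82103400) and Ccl8 (ENSMUSG00000009185, chr11:82115185-82116799) lie on the plus strand within 81.2 kb. Ccl24 (ENSMUSG00000004814, chr5:135569937-135573049) lies alone on the minus strand. Coding sequences of the pairs were identical at 49.4% (Ccl2 and Ccl8) to 66.7% (Ccl7 and Ccl8) of aligned bases, and the longest run of bases shared by 2 of the transcripts was 23 (Ccl2 and Ccl7). Nlrp3 (chr11:59541568-59566956) lies on the same chromosome as 4 of the 5 genes, 22.5 Mb from Ccl2.

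The 5 genes differed in which cells carried their UMIs. Of 4475 Ccl2 UMIs, 77.2% came from microglia and 20.4% from border macrophages, and of 39111 Ccl12 UMIs 88.9% and 10.5%. Ccl7 was divided the other way, with 29.9% of 1076 UMIs in microglia and 69.5% in border macrophages. Ccl8 was almost entirely a border macrophage transcript, with 1613 of 1633 UMIs (98.8%) there. Ccl24 had 78.1% of 2763 UMIs in microglia, the far more numerous cells. As CPM, border macrophages exceeded microglia for all 5 genes, by 3.08-fold for Ccl12, 6.91-fold for Ccl2, 6.99-fold for Ccl24, 60.8-fold for Ccl7 and 2637-fold for Ccl8.

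**Figure D1:**
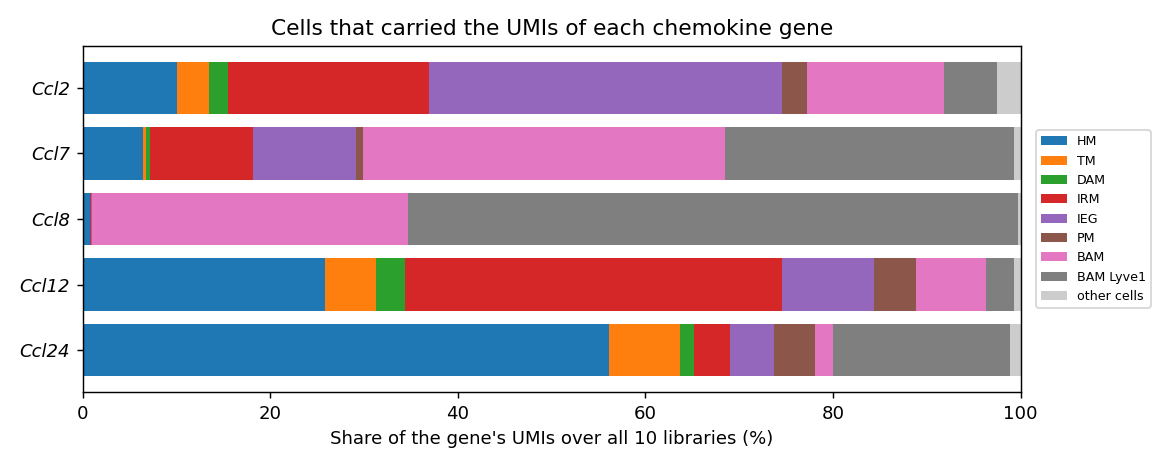
Share of each gene's UMIs (x axis, percent of all its UMIs in the 10 libraries) carried by each microglial state, each border macrophage cluster and all other CD45+ cells (bar segments). Border macrophages carried 98.8% of Ccl8 UMIs and 69.5% of Ccl7 UMIs, and microglia carried 88.9% of Ccl12, 78.1% of Ccl24 and 77.2% of Ccl2 UMIs.

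The states and clusters were drawn by the authors from the expression of all genes, the chemokines among them, so levels between them are described without a test. Ccl2, the main monocyte attractant of the family, was highest in IEG microglia (140 CPM, 95% interval 134 to 147), followed by BAM (127 CPM), BAM Lyve1 (115 CPM) and IRM (85.0 CPM). The ranges over libraries of these 4 groups overlapped. PM came next, and the library values of IRM (53.1 to 156 CPM) and PM (9.88 to 46.4 CPM) did not overlap. Single libraries of other groups crossed this step. DAM had 58.8 CPM in Nlrp3KO mice at 3 months, where they were 0.622% of 5948 microglia. IEG microglia had 17.4 CPM in WT mice at 6 months and 38.2 CPM in APP/PS1 mice at 9 months. DAM (15.5 CPM), TM (11.7 CPM) and HM (3.05 CPM) followed, so IEG and IRM microglia exceeded HM by 46.0-fold and 27.9-fold, each in 10 of 10 libraries. T cells had 2.70 CPM from 28 UMIs, 19 of them in 1 cell. Without cells of a doublet score over 0.5 the T cells had 0.108 CPM and HM 2.84 CPM.

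Ccl12, a mouse Ccr2 ligand with no direct human counterpart, led in a different state. IRM microglia had 1393 CPM (interval 1371 to 1415) and exceeded IEG microglia (319 CPM) in 10 of 10 libraries, by 4.37-fold, and HM (68.9 CPM) in 10 of 10, by 20.2-fold. In IRM the Nlrp3WT libraries had 1269, 1754 and 1265 CPM in WT mice at 3, 6 and 9 months and 985 and 1429 CPM in APP/PS1 mice at 3 and 9 months. The Nlrp3KO libraries had 2077, 1957 and 2219 CPM in non-diseased mice at the same ages and 1023 and 1166 CPM in APP/PS1 mice. The 3 non-diseased Nlrp3KO libraries thus held the highest IRM levels, and both genotypes overlapped in APP/PS1 mice. For Ccl2 and Ccl7 the order of these states varied, since IRM exceeded IEG microglia in 4 of 10 libraries for Ccl2 and in 5 of 10 for Ccl7.

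Ccl7 and Ccl8 had their highest levels in BAM Lyve1. Ccl7, which attracts monocytes through several receptors, had 150 CPM in BAM Lyve1, 80.2 CPM in BAM, 10.4 CPM in IRM and 9.93 CPM in IEG microglia, and was higher in BAM Lyve1 than in BAM in 8 of 9 libraries with at least 20 cells of both. Ccl8 had 480 CPM in BAM Lyve1 (interval 451 to 509) and 106 CPM in BAM (97.8 to 116), a difference of 4.50-fold seen in 9 of 9 such libraries. The library left out, Nlrp3KO at 9 months, went the other way. It had 292 CPM in 13 BAM Lyve1 cells and 549 CPM in 41 BAM cells, where 1 cell held 116 of 170 UMIs. Every other group of at least 50 cells had under 1 CPM of Ccl8, and no Ccl8 UMI was found in 2538 TM, 901 DAM, 790 PM or 1598 T cells. A count of 0 in 1598 T cells allows a share of cells with a Ccl8 UMI of up to 0.188%.

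Ccl24 was the gene most unequal between the border clusters. BAM Lyve1 had 236 CPM (interval 216 to 257) and BAM 10.0 CPM, a difference of 23.5-fold in 9 of 9 libraries. In BAM Lyve1 the libraries ranged from 82.3 CPM in Nlrp3KO APP/PS1 mice at 9 months to 290 CPM in Nlrp3KO mice at 3 months, and the other 7 lay between 194 and 288 CPM. Microglia held less Ccl24, from 6.89 CPM in DAM to 23.5 CPM in PM, with 10.6 CPM in HM and 9.38 CPM in IRM. PM exceeded HM by 2.22-fold in 10 of 10 libraries, and DAM exceeded HM in 2 of 10. Where Ccl2, Ccl7 and Ccl12 were higher in IRM than in HM in 10 of 10 libraries, Ccl24 was higher in 3 of 10, and Ccl8 in 1 of 10 from 2 UMIs. In contrast to Ccl8 and Ccl24, Ccl2 and Ccl12 did not separate the border clusters, being higher in BAM Lyve1 in 4 and 5 of 9 libraries.

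**Figure D2:**
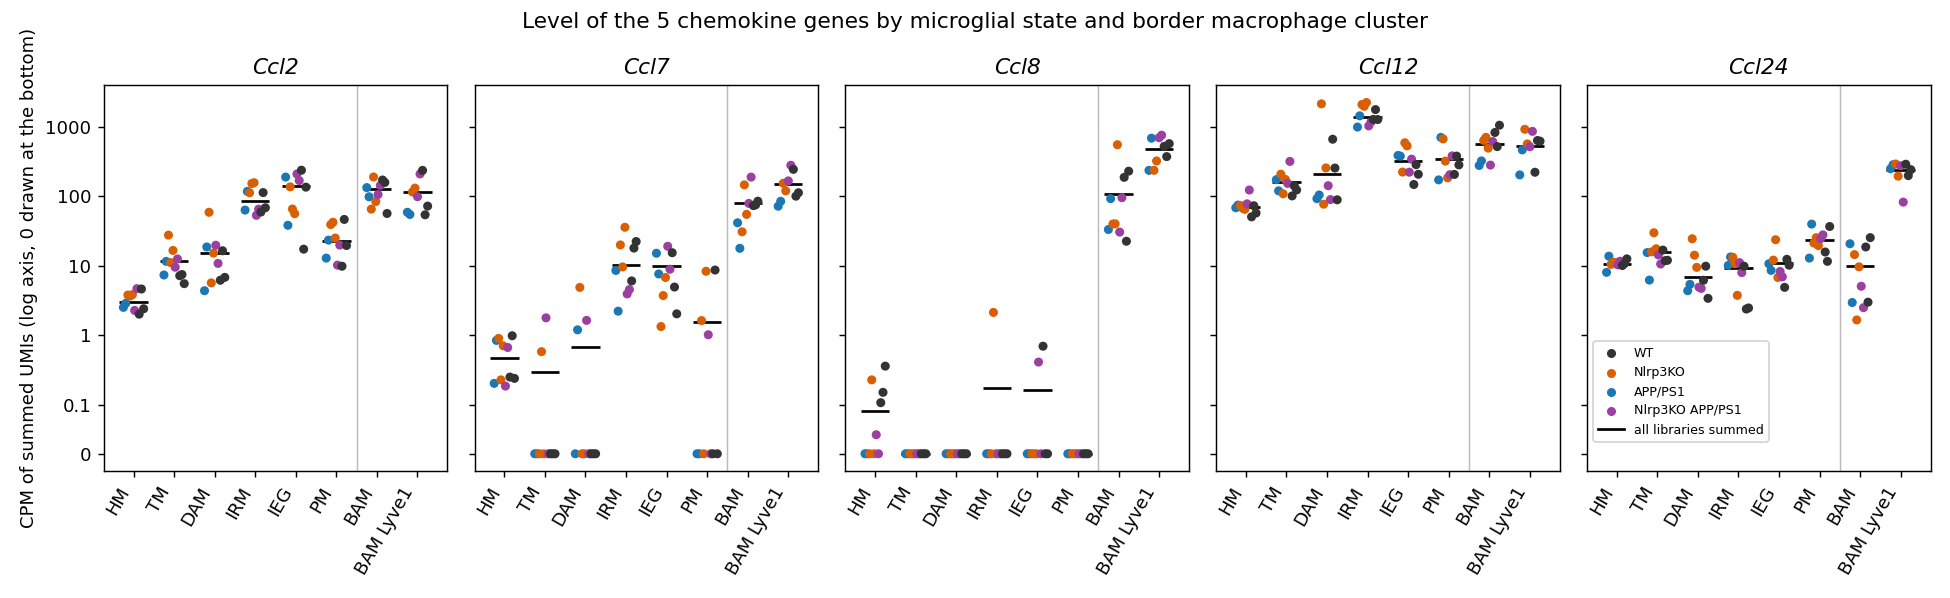
Level of each gene (y axis, CPM of summed UMIs on a log axis with 0 drawn at the bottom) in the 6 microglial states and both border macrophage clusters (x axis). Points are single libraries with at least 20 cells, coloured by genotype, and bars are all libraries summed. Ccl12 peaked in IRM (1393 CPM), Ccl8 in BAM Lyve1 (480 CPM) and Ccl24 in BAM Lyve1 (236 CPM).

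Ccl2 was found in a minority of the cells of each group named here, and some cells carried many of its UMIs. In IEG microglia 246 of 2094 cells (11.7%, 95% exact binomial interval 10.4 to 13.2%) had a Ccl2 UMI, and 10 cells held 32.2% of the state's 1681 Ccl2 UMIs. The share was 11.8% in IRM, 24.6% in BAM Lyve1, 18.8% in BAM and 1.04% in HM, against 0.438% in T cells as a background. Median depths were 5408 UMIs per IEG cell, 4366 per HM cell and 5810 per T cell. With every cell thinned to 1500 UMIs, which no cell fell short of, the Ccl2 shares were 6.45% in IEG, 6.30% in IRM, 11.5% in BAM Lyve1, 8.69% in BAM, 0.397% in HM and 0.125% in T cells. The order of IEG and IRM microglia over HM was therefore also present at equal depth.

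Ccl12 was the gene found in most cells, with a UMI in 53.5% of IRM, 51.3% of PM, 48.4% of BAM Lyve1, 35.9% of BAM and 20.8% of HM cells against 1.94% of T cells. After thinning these shares were 34.6%, 21.4%, 29.8%, 24.0%, 8.68% and 0.626%. Ccl24 was found in 53.1% of BAM Lyve1 cells (26.7% after thinning), 4.00% of BAM cells (1.79%), 4.303% of HM cells (1.57%) and 0.626% of T cells (0.250%). Ccl8 was found in 39.3% of BAM Lyve1 cells (24.6%) and 9.52% of BAM cells (4.69%). In BAM the 551 Ccl8 UMIs came from few cells, 10 of which held 66.2%, and 1 cell of the Nlrp3KO library at 9 months held 116.

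The chemokines were compared within single cells at the thinned depth, as a description over cells that share libraries. Of 143 IRM cells with a Ccl2 UMI, 80.4% (interval 73.0 to 86.6%) also had a Ccl12 UMI, against 31.2% of those without. In IEG microglia these shares were 40.3% and 16.1%, and in BAM 57.1% and 21.7%. Ccl7 followed Ccl2 in BAM as well, with a UMI in 30.4% of cells that had Ccl2 and 2.99% of those that did not, and in IRM in 9.79% and 0.329%. Ccl8 and Ccl24, both highest in BAM Lyve1, were not found together more often there, since 22.0% of cells with Ccl8 (14.0 to 31.9%) and 25.4% of cells without it (20.5 to 30.8%) had Ccl24.

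Over the 19 cell types and states of at least 50 cells, the level of Ccl7 was closest to that of Ccl8 among the other members (Pearson's r of log2(CPM + 1) = 0.882), Ccl12 to Ccl24 (r = 0.830) and Ccl2 to Ccl12 (r = 0.810). Among 12235 genes with at least 200 UMIs, those most like Ccl8 were Chp2 (r = 0.974), Pla2g2d (r = 0.974) and Cd209f (r = 0.963), and those most like Ccl24 were Vcam1 (r = 0.911), Atp2b2 (r = 0.905) and Stab1 (r = 0.903). Adam33 (r = 0.937) and Siglec1 (r = 0.911), a macrophage sialic acid receptor, came before Ccl8 for Ccl7. For Ccl12 the complement genes C1qa (r = 0.924) and C1qc (r = 0.920) stood beside Snx24 (r = 0.923), and for Ccl2 the B cell attractant Cxcl13 (r = 0.858) stood beside Tmbim1 (r = 0.850) and Ctsc (r = 0.845). The Cxcl13 UMIs came from few cells, with 459 in 35 IRM cells, 210 in 9 BAM cells and 85 in 3 BAM Lyve1 cells. These 19 groups share the same 10 libraries and differ in depth, so the values describe the groups only.

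The receptors of these ligands were counted in the same cells. Ccr2 was highest in monocytes (1384 CPM), BAM (1115 CPM) and type 2 conventional dendritic cells (1055 CPM), and had 5.69 CPM in HM. Ccr1 had 277 CPM in BAM Lyve1, 110 CPM in BAM and 109 CPM in both type 2 conventional dendritic cells and neutrophils. Ccr3, the Ccl24 receptor, reached at most 3.45 CPM in any group of at least 50 cells, from 3 UMIs in non-classical monocytes. Ccl2, Ccl7 and Ccl12 had 127, 80.2 and 562 CPM in BAM and 115, 150 and 527 CPM in BAM Lyve1. These Ccr2 ligands thus stood beside high Ccr2 in BAM and beside 3.61 CPM of Ccr2 in BAM Lyve1. BAM Lyve1 also held more Ccl8 and Ccl24 than BAM. Whether ligand and receptor lay in the same cells was not tested.

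Of the 5 genes, only Ccl12, which had its highest level in IRM, and Ccl8, which had its in BAM Lyve1, were in the RefSeq promoter table (GRCm38.p6). The 120 bases before each start site are printed, at chr11:82101725-82101844 for Ccl12 and chr11:82115065-82115184 for Ccl8, 5′ to 3′ on the plus strand, with TATAAA in capitals.
Ccl12: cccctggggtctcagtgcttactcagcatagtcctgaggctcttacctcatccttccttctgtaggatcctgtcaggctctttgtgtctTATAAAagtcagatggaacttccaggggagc
Ccl8: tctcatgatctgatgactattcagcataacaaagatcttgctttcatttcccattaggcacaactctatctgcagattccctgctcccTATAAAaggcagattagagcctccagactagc
This TATA box began 31 bases before the start in Ccl12 and 32 in Ccl8, and it occurred anywhere in the 250 bases, on either strand, of 12.4% of 32851 promoters. It was chosen after the sequences were seen. Over the 250 bases neither holds the strict interferon-stimulated response element (found in 2.98% of promoters on either strand). The kappa-B core GGGNNTTCC (4.98%) and the AP-1 element TGANTCA (6.75%) were not in either window. Sites with other letters or spacing, such as other forms of the kappa-B site, were not searched for. The 2 sequences were identical at 57.5% of aligned bases, with a longest shared run of 8.

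The first comparison asked whether the chemokines differed in microglia that lack Nlrp3, the sensor of an inflammasome that matures interleukin-1β. The microglial UMIs of a library were added up, and Nlrp3KO and WT libraries of the same age and background were compared as 5 pairs with edgeR's quasi-likelihood test. Calls needed an adjusted p under 0.05 after Benjamini-Hochberg adjustment and an absolute log2 fold change over 1. Of 12383 genes, 3 were called (0.0242%), all lower in Nlrp3KO and including Nlrp3, and none of the 4 members tested was called. Ccl8, with 16 UMIs in all microglia, did not pass the filter on low counts.

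Ccl2 was higher in the Nlrp3KO library of each pair. The WT libraries had 15.03, 11.9 and 13.8 CPM in non-diseased mice at 3, 6 and 9 months and 18.1 and 19.6 CPM in APP/PS1 mice at 3 and 9 months. Their Nlrp3KO counterparts had 17.4, 18.6, 14.6, 21.4 and 30.6 CPM in the same order. The genotypes overlapped across pairs, and within pairs the counting intervals did not overlap in non-diseased mice at 6 months and APP/PS1 mice at 9 months and overlapped in the other 3. The fitted log2 fold change was 0.37 (SE 0.097), with an unadjusted edgeR p of 0.0051, which 574 genes had at under 0.05, and an adjusted p of 0.903.

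Ccl12 was also higher in 5 of 5 pairs. The WT libraries had 112, 181 and 165 CPM in non-diseased mice at 3, 6 and 9 months and 159 and 246 CPM in APP/PS1 mice, and the Nlrp3KO libraries 192, 221, 195, 171 and 274 CPM. The pair of WT and Nlrp3KO mice at 3 months differed most, and the fold change without it was 0.20 against 0.32 (SE 0.088) with it (edgeR, adjusted p = 0.957 and 0.903). Ccl7 (log2 fold change 0.12, SE 0.23) and Ccl24 (0.14, SE 0.098) were higher in 4 and 3 of 5 pairs. All 4 members tested had positive fold changes, with a median of 0.23 against 0.0068 over all genes tested. The share of IEG microglia, the state with the highest Ccl2, was also higher in Nlrp3KO in 5 of 5 pairs. It was 4.304, 7.82 and 4.24% in Nlrp3KO against 3.49, 4.38 and 3.36% in WT mice at 3, 6 and 9 months, with 5.48 and 9.74% against 4.96 and 8.35% in the 3-month and 9-month APP/PS1 pairs. The 8 border macrophage markers summed to 6.04 to 18.9 CPM in Nlrp3KO and 6.47 to 12.1 CPM in WT microglia, and the 4 of them that were tested had positive fold changes with a median of 0.34 and none called. Their part in the result was not tested. Without the IEG state the Ccl2 fold change was 0.35 (SE 0.18) and in HM alone 0.33 (SE 0.21).

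**Figure D3:**
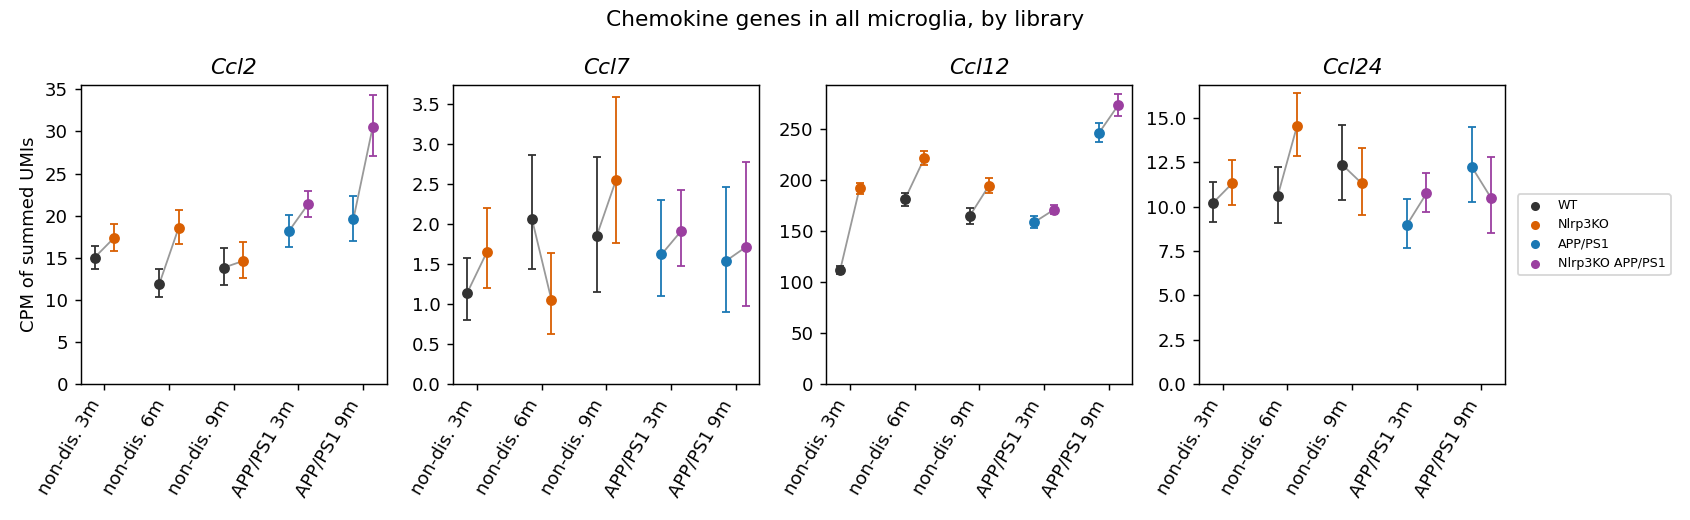
CPM of summed UMIs (y axis) of 4 genes in all microglia of each library, with 95% exact Poisson intervals as error bars and lines joining the Nlrp3WT and Nlrp3KO library of each age and background (x axis). Ccl2 and Ccl12 were higher in the Nlrp3KO library of 5 of 5 pairs, Ccl7 of 4 and Ccl24 of 3, and none passed the test.

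The Nlrp3KO to WT ratio of Ccl2 was then taken within each microglial state, which removes the share of each state. Pairs were formed where both libraries had at least 10 cells of the state, and a prior count of 2 UMIs was added. In TM the WT libraries had 7.22, 7.51 and 5.55 CPM in non-diseased mice at 3, 6 and 9 months and 7.39 and 11.6 CPM in APP/PS1 mice, and the Nlrp3KO libraries 27.6, 11.1, 16.7, 9.55 and 12.6 CPM. Nlrp3KO was thus higher in 5 of 5 pairs, by a mean log2 ratio of 0.80 (SD 0.70, a geometric mean ratio of 1.74). The exact two-sided sign-flip permutation test gave p = 0.063, the smallest that 5 pairs allow, and an adjusted p of 0.375 over the 6 states. These levels rested on 106 Nlrp3KO and 50 WT UMIs, and 40 of the 106 came from Nlrp3KO mice at 3 months.

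The other 5 states had ratios in both directions. In IEG microglia, where Ccl2 was highest, WT libraries had 236, 17.4 and 135 CPM in non-diseased mice at 3, 6 and 9 months and 188 and 38.2 CPM in APP/PS1 mice, and Nlrp3KO libraries 136, 65.6, 56.1, 209 and 168 CPM. The mean log2 ratio was 0.41 with an SD of 1.49 and 3 of 5 pairs higher, and it was -0.0079 without the APP/PS1 pair at 9 months. In IRM the 3 non-diseased pairs were higher in Nlrp3KO, with 112, 152 and 156 CPM against 59.3, 113 and 68.3 CPM. Both APP/PS1 pairs were lower in IRM, with 53.1 and 65.1 CPM against 63.3 and 117 CPM, and whether backgrounds differ in this state was not tested. The mean log2 ratios were 0.34 in HM (SD 0.53, 3 of 5 pairs higher), 0.51 in DAM (SD 1.30, 3 of 5), 0.28 in IRM (SD 0.82, 3 of 5) and 0.27 in PM (SD 0.81, 2 of 5). The exact permutation tests gave p from 0.25 to 0.75 in these 5 states, and adjusted p from 0.656 to 0.75.

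**Figure D4:**
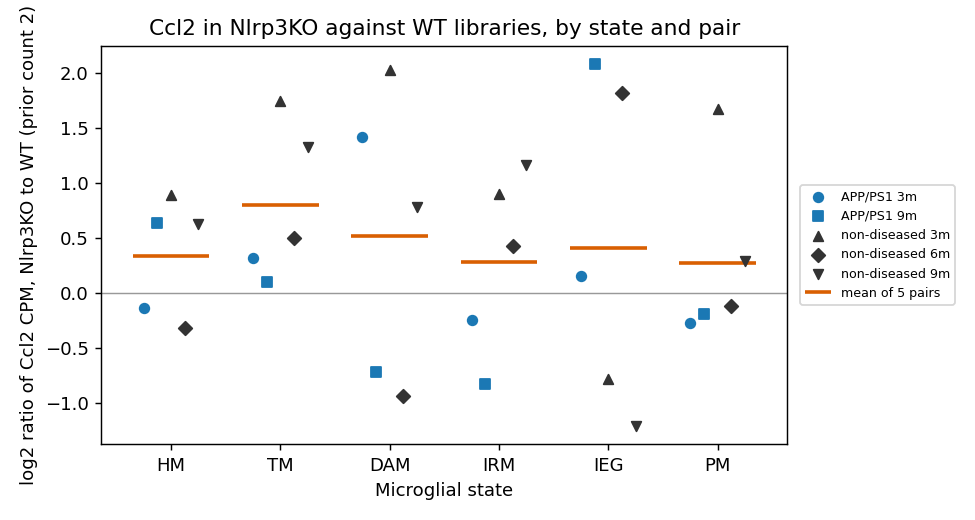
Log2 ratio of Ccl2 CPM in Nlrp3KO to WT libraries (y axis, prior count 2) for each of 5 pairs (points) in each microglial state (x axis), with orange bars at the mean. All 5 pairs lay above 0 in TM (mean 0.80), and pairs lay on both sides of 0 in the other 5 states.

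The second comparison asked whether amyloid pathology went with the chemokines in microglia, over 4 pairs of libraries that matched in age and Nlrp3 genotype and differed in the APP/PS1 transgenes. Of 12282 genes, 5 were called (0.0407%), all higher in APP/PS1, and none of the 4 members tested was called. These libraries are the same as in the comparison of Nlrp3 genotypes, so the results are not independent of each other.

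Ccl2 was higher in APP/PS1 mice in 4 of 4 pairs. In Nlrp3WT mice it had 15.03 and 18.1 CPM without and with the transgenes at 3 months and 13.8 and 19.6 CPM at 9 months, and in Nlrp3KO mice 17.4 and 21.4 CPM and then 14.6 and 30.6 CPM. The lowest APP/PS1 library (18.1 CPM) lay above the highest non-diseased library of these pairs (17.4 CPM). It lay below the non-diseased Nlrp3KO library at 6 months (18.6 CPM), which has no APP/PS1 partner. The share of all genes tested with such a separation was not counted. Of the 347 Ccl2 UMIs of that APP/PS1 library, from Nlrp3WT mice at 3 months, 95 came from 1 of 3083 cells. In its WT partner the highest cell held 52 of 486. The order of these libraries without such cells was not tested. The log2 fold change was 0.52 (SE 0.14), with an unadjusted edgeR p of 0.0068 and an adjusted p of 0.431. The share of IEG microglia moved with it, at 4.96 and 5.48% in APP/PS1 against 3.49 and 4.304% in non-diseased libraries at 3 months and 8.35 and 9.74% against 3.36 and 4.24% at 9 months. The share of IRM moved likewise, at 6.58 and 7.53% against 3.80 and 3.61% at 3 months. At 9 months it was 8.17 and 10.0% against 6.50 and 3.87%. The shares of DAM and PM were also higher in APP/PS1 in each pair. DAM had 11.7 and 11.5% against 2.34 and 3.79% at 9 months. HM was lower in each pair, at 58.9 and 53.7% against 76.6 and 78.3% at 9 months. TM was higher except in the Nlrp3KO pair at 3 months (4.24 against 4.61%). For Ccl2, DAM, TM and PM each exceeded HM in 10 of 10 libraries. In DAM this rested on 50 Ccl2 UMIs in Nlrp3KO and 40 in WT libraries. The DAM values of 6.21 CPM in WT and 4.39 CPM in APP/PS1 mice at 3 months came from 0.431 and 0.778% of their microglia. Without the IEG state the fold change was 0.29 (SE 0.23), and in HM alone it was -0.11 (SE 0.23). The 8 border macrophage markers, summed over all microglia, were at 9.87 to 18.9 CPM in APP/PS1 and 6.04 to 10.4 CPM in non-diseased libraries of these pairs. Monocyte markers were at 8.15 to 20.03 CPM against 6.03 to 8.29 CPM, and 3 of 3 that were tested had positive fold changes with a median of 0.98. Of 13 immediate-early genes 11 had positive fold changes, with a median of 0.15 and none called, and the part of these markers and states in the result was not tested.

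Ccl12 was higher in APP/PS1 in 3 of 4 pairs, with 112 and 159 CPM in Nlrp3WT mice at 3 months, 165 and 246 CPM at 9 months, 192 and 171 CPM in Nlrp3KO mice at 3 months and 195 and 274 CPM at 9 months. Its log2 fold change was 0.37 (SE 0.13, edgeR, adjusted p = 0.594). Its fold change was also positive in HM alone, at 0.42 (SE 0.12, adjusted p = 0.900). Ccl7 (0.04, SE 0.22) was higher in 2 of 4 pairs and turned to -0.80 in HM alone and -0.85 without the IEG state. Ccl24 was lower in 4 of 4 pairs by a small amount (-0.09, SE 0.077). The median over the 4 members was 0.21 against 0.0032 over all genes tested.

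The effect of Nlrp3 deletion was also compared between APP/PS1 and non-diseased mice as an interaction. No gene of 12383 was called in microglia, with edgeR adjusted p of 1 for the 4 members tested. The interaction was 0.13 (SE 0.21) for Ccl2, 0.17 (SE 0.51) for Ccl7, -0.28 (SE 0.16) for Ccl12 and -0.10 (SE 0.22) for Ccl24.

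Other chemokines of a list of 29, of which 13 were tested in microglia, were read beside the members. In APP/PS1 mice 12 of the 13 were higher, with a median log2 fold change of 0.61, and 1 was called, Ccl4 (1.34, SE 0.13, edgeR, adjusted p = 0.0282). Ccl3 had 1.37 (SE 0.20, adjusted p = 0.123). In Nlrp3KO mice 7 of 13 were higher, none was called, and the median was 0.0025. Of 15 genes of the NF-kB pathway, which is known to drive Ccl2, none was called in either comparison, with 10 higher in APP/PS1 (median 0.07) and 9 higher in Nlrp3KO (median 0.02). Of all genes tested in microglia, 0.0407% were called for APP/PS1 and 0.0242% for Nlrp3KO. No receptor was called in any of the 4 comparisons, in which 0.0242 to 0.0859% of all genes were called. At such shares, the absence of calls in short lists says little about their genes.

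The third comparison turned to border macrophages, summed per library and paired in the same way by Nlrp3 genotype. Of 7644 genes, 4 were called (0.0523%), and none of the 5 members was called. Ccl24 had the lowest fold change of the members. The WT libraries had 110, 71.0 and 81.5 CPM in non-diseased mice at 3, 6 and 9 months and 75.7 and 108 CPM in APP/PS1 mice, and the Nlrp3KO libraries 83.1, 61.2, 46.8, 83.7 and 25.1 CPM. Nlrp3KO was lower in 4 of 5 pairs, and the libraries overlapped. The log2 fold change was -0.53 (SE 0.21), with an unadjusted edgeR p of 0.021, which 423 genes had at under 0.05, and an adjusted p of 0.829. The share of BAM Lyve1 among border macrophages, where Ccl24 lies, was lower in the Nlrp3KO library of the 3-month (27.0 against 36.7%) and 9-month (24.1 against 32.0%) non-diseased pairs and of the 9-month APP/PS1 pair (35.5 against 46.2%). It was higher in the Nlrp3KO library at 6 months (37.5 against 36.6%) and in APP/PS1 mice at 3 months (34.0 against 29.3%). Within the clusters, chosen after seeing the data, the fold change was -0.27 (SE 0.20) in BAM Lyve1 alone and -1.12 (SE 0.48, edgeR, adjusted p = 0.922) without BAM Lyve1. In BAM, Ccl24 was lower in the Nlrp3KO library of 5 of 5 pairs, from 17 UMIs in Nlrp3KO and 35 in WT libraries. All 8 border macrophage markers also had negative fold changes, with a median of -0.24 and none called.

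Ccl2, Ccl7 and Ccl8 swung widely between pairs. Ccl2 had 193, 119 and 60.6 CPM in WT mice at 3, 6 and 9 months and 115 and 81.9 CPM in APP/PS1 mice, against 77.6, 171, 67.5, 104 and 162 CPM in Nlrp3KO libraries. Ccl8 had 300, 142 and 318 CPM in WT mice and 82.0 and 313 CPM in APP/PS1 mice, against 88.5, 127, 499, 224 and 282 CPM. Both fold changes were near 0 in sum, at -0.0011 (SE 0.23) for Ccl2 and -0.0041 (SE 0.27) for Ccl8. Ccl7 had 131, 82.2 and 91.9 CPM in WT mice and 48.9 and 42.8 CPM in APP/PS1 mice, against 61.3, 137, 64.9, 104 and 214 CPM, which gave 0.49 (SE 0.31, edgeR, adjusted p = 0.893). Ccl12 had a fold change of 0.15 (SE 0.17).

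**Figure D5:**
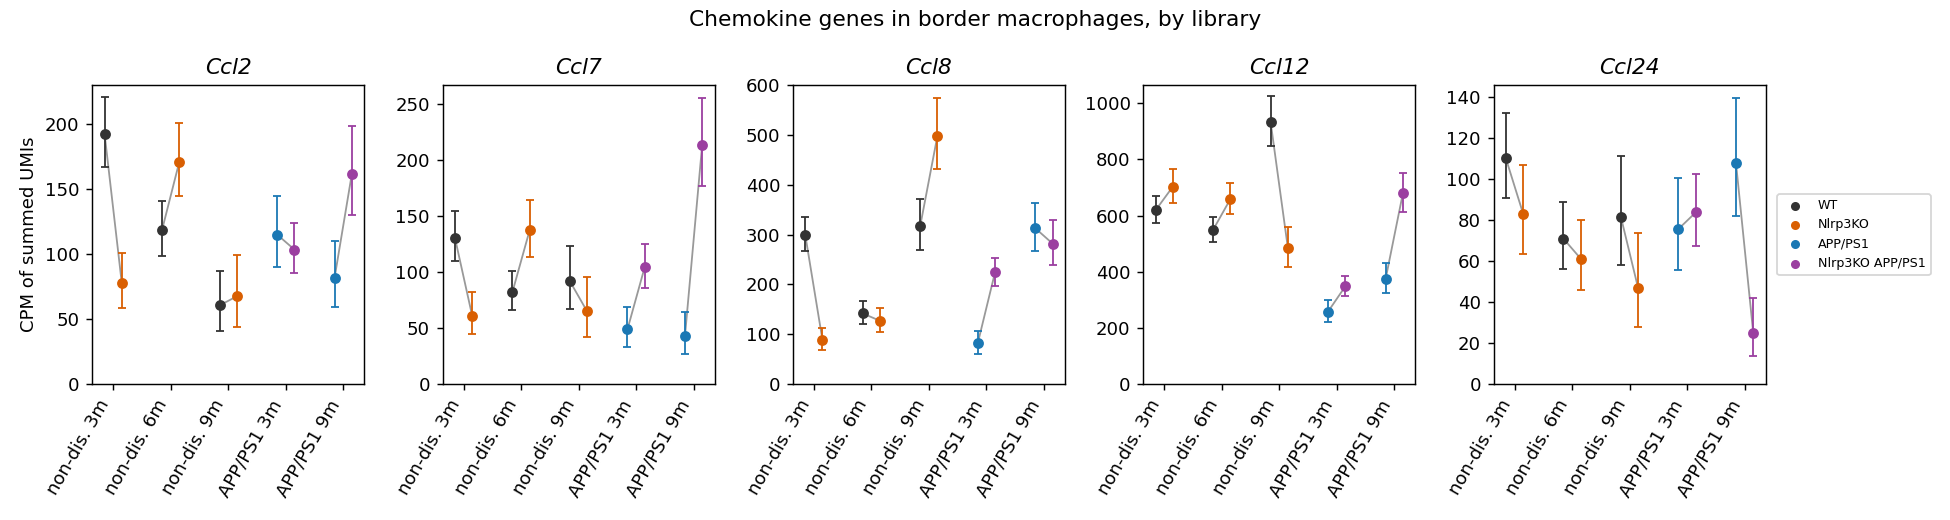
CPM of summed UMIs (y axis) of the 5 genes in the border macrophages of each library, with 95% exact Poisson intervals as error bars and lines joining the Nlrp3WT and Nlrp3KO library of each age and background (x axis). Ccl24 was lower in the Nlrp3KO library of 4 of 5 pairs, and Ccl12 in APP/PS1 libraries lay between 259 and 679 CPM against 486 to 934 CPM in non-diseased ones at 3 and 9 months.

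The Ccl7 values of the APP/PS1 pairs were both higher in Nlrp3KO, whereas 2 of 3 non-diseased pairs were lower. The interaction of Nlrp3 genotype and background was 1.84 on the log2 scale (SE 0.47), with an unadjusted edgeR p of 0.0012 and an adjusted p of 0.655, where 4 of 7644 genes were called. For Ccl12 it was 0.74 (SE 0.29, adjusted p = 0.9998). Of 119 Ccl7 UMIs in Nlrp3KO APP/PS1 mice at 9 months, 26 came from 1 of 76 cells.

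The fourth comparison asked the same of the APP/PS1 transgenes in border macrophages. Among 6986 genes, 6 were called (0.0859%), all higher in APP/PS1, and none of the 5 members was called. Ccl12 was the member that differed most. In Nlrp3WT mice it had 619 CPM without and 259 CPM with the transgenes at 3 months and 934 and 374 CPM at 9 months. In Nlrp3KO mice it had 703 and 348 CPM at 3 months and 486 and 679 CPM at 9 months. It was lower in APP/PS1 in 3 of 4 pairs, and the fourth pair went the other way. The log2 fold change was -0.84 (SE 0.19), with an unadjusted edgeR p of 0.00037, which 390 genes had at under 0.05, and an adjusted p of 0.112. That SE draws on the spread of other genes as well. The log2 ratios of the 4 pairs themselves had a mean of -0.77 and an SD of 0.85.

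The call depended on the libraries and cells that entered. Without the Nlrp3KO pair at 9 months, the pair that went the other way, Ccl12 was called (-1.23, edgeR, adjusted p = 1.02e-05). That fit had 2 residual degrees of freedom and called 10 of 7252 genes. Within the clusters, chosen after seeing the data, Ccl12 was called without BAM Lyve1 (-1.09, SE 0.21, adjusted p = 0.0128) and had -0.20 (SE 0.20, adjusted p = 0.997) in BAM Lyve1 alone. Ccl8 was called without BAM Lyve1 (-1.88, SE 0.24, adjusted p = 0.000225), had 0.47 (SE 0.25, adjusted p = 0.997) in BAM Lyve1 alone, and -0.39 (SE 0.28, adjusted p = 0.973) over all border macrophages. The fit without BAM Lyve1 called 16 of 5928 genes, 2 of them among the 4 members tested. In BAM its libraries had 187, 39.9, 229 and 549 CPM without the transgenes (WT and Nlrp3KO at 3 months, then at 9 months) and 33.2, 30.6, 92.2 and 95.3 CPM with them. Of the 170 UMIs behind the value of 549 CPM, 116 came from 1 cell. With the transgenes, the highest cells held 10 of 16 and 11 of 24 Ccl8 UMIs at 3 months (Nlrp3WT and Nlrp3KO). At 9 months they held 29 of 31 and 25 of 38. Without the transgenes they held 46 of 130 in WT and 14 of 22 in Nlrp3KO mice at 3 months, and 40 of 81 in WT mice at 9 months.

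Monocyte markers were read in the same libraries. In border macrophages 4 of 4 monocyte markers tested were higher in APP/PS1, with a median log2 fold change of 0.77, and Plac8 was called (1.15, edgeR, adjusted p = 0.0313). Their summed level was 923 to 1515 CPM in APP/PS1 and 639 to 990 CPM in non-diseased libraries of these pairs. It was lower with the transgenes in the Nlrp3KO pair at 9 months (923 against 990 CPM) and higher in the other pairs. Ccr2 had a fold change of 0.38 (SE 0.12, edgeR, adjusted p = 0.452) and made up most of the summed level. In BAM over all libraries it had 5771 UMIs, against 914 of Plac8, 449 of Ly6c2, 58 of Chil3 and 2 of Vcan. The part of the monocyte markers in the lower Ccl12 was not tested. Ccl2 (0.17, SE 0.21), Ccl7 (0.02, SE 0.31) and Ccl24 (-0.20, SE 0.18) had adjusted p over 0.97. The median over the 5 members was -0.20 against -0.0037 over all genes tested.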

How the data were processed

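The authors sorted CD45+ cells, mapped reads to mm10 with STAR and Cell Ranger, removed outlier cells with Scater and annotated clusters with Seurat, harmony and Leiden clustering. They deposited UMI counts per gene and cell without normalization (31053 genes, 52369 cells), 2 annotations and a doublet score per cell, which is the authors' deposited score between 0 and 1. Cells of 2 sample names that match no sample used here (6897 cells) were left out. The members and lists were chosen with earlier results of these data known.

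Counts were summed per library and state. CPM carry exact Poisson and shares exact binomial intervals (95%), and a count of 0 was set against 3 counts. edgeR 4.0.16 (R 4.3.3) was fitted with TMM, filterByExpr and the pair of libraries as the block, which left 4 residual degrees of freedom for Nlrp3 and 3 for APP/PS1. Groups have 1 library each, so edgeR p-values rest on the spread between pairs of libraries, each from pooled mice. edgeR moderates this spread toward that of other genes. The SE given with edgeR fold changes come from its F statistic and can be smaller than the spread of a gene's own pairs implies. Ratios of Ccl2 were tested with sign-flip permutations over 5 pairs (Python 3.11.15, scipy 1.17.1). Named genes were the 5 members, the 3 genes most like each, their receptors and called genes of the lists, with marker genes of the cell types. Ccl3 and the markers shown were picked after their values were seen. Alternatives were DESeq2 1.42.0, its size factors, no filter, other covariates, cells without a doublet score over 0.5, single states, a prior count of 0.5, thinning and leaving out pairs. The models were checked on simulated counts with a single dispersion for all genes, no differences between pairs and larger changes than the members had. That check does not cover genes with the small changes and uneven counts of the members. Fits of single border clusters were chosen after seeing the data. Sequences came from GENCODE on GRCm38 and from RefSeq.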

Additional observations from a re-analysis of the deposited data

Results flagged for a closer look

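Differences between subsets of pairs were set side by side where every pair of one subset moved one way and every pair of the other the opposite way, with 2 pairs in each subset, and these differences were not tested unless a test is given. In microglia, the APP/PS1 effect on Ccl7 was a mean log2 ratio of 0.34 at 3 months and -0.39 at 9 months, a difference of 0.73. Also in microglia, the Nlrp3KO effect on Ccl24 was 0.20 at 3 months and -0.17 at 9 months, a difference of 0.37. In border macrophages, the Nlrp3KO effect on Ccl2 was -0.72 at 3 months and 0.55 at 9 months, a difference of -1.27, and age and batch cannot be told apart in these 3 cases. The APP/PS1 effect on Ccl7 in border macrophages was 1.20 in Nlrp3KO and -1.21 in Nlrp3WT mice, a difference of 2.41, and the interaction fitted over all 10 libraries was 1.84 (SE 0.47, edgeR, adjusted p = 0.655). Few UMIs lie behind the Ccl7 values, with 16 to 67 UMIs per library in microglia and 23 to 138 in border macrophages. In microglia at 9 months, 1 cell held 16 of 21 Ccl7 UMIs in WT and 1 cell 16 of 33 in Nlrp3KO mice. In the APP/PS1 and Nlrp3KO APP/PS1 libraries of that age the highest cells held 8 of 17 and 6 of 16. The direction of the 9-month effect without such cells was not tested.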

How the results depend on the processing

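The labels give no replicate numbers, and pairs of libraries matched in age and background were the block. Of 232 recomputed member fold changes 197 kept their direction and side of the threshold, 3 became calls and 32 changed sign, as did 3 of 54 Ccl2 ratios, and the cause was not tested. Ccl2 and Ccl12 in microglia stayed positive for Nlrp3 deletion under all 15 settings (0.29 to 0.43 and 0.14 to 0.44). In border macrophages, Ccl12 stayed negative for APP/PS1 under all 12 (-1.23 to -0.20). Its adjusted p was 0.0178 without cells of a high doublet score (log2 fold change -0.99) and 9.42e-11 without the filter (-0.84), both short of the fold limit. The 16 UMIs of Ccl8 in all microglia and the few of Ccl7 limit what these libraries can show.

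Genes called for Nlrp3 deletion in microglia were 3, against 6 with DESeq2, 5 by adjusted p alone, 10 in APP/PS1 libraries alone and 2 to 8 when leaving out a pair, the highest without the non-diseased 9-month pair. For APP/PS1 in microglia they were 5, against 22 with DESeq2, 0 in HM alone and 0 to 11 when leaving out a pair, with 0 without either Nlrp3KO pair and 11 without the Nlrp3WT 9-month pair. In border macrophages Nlrp3 deletion gave 4, against 27 without a filter, 8 without BAM Lyve1 and 3 to 7 when leaving out a pair, the highest without the APP/PS1 3-month or the non-diseased 6-month pair. APP/PS1 gave 6 there, against 3 with DESeq2, 26 without a filter, 11 by adjusted p alone, 0 in BAM Lyve1 alone, 16 without BAM Lyve1 and 2 to 10 when leaving out a pair, with 2 without the Nlrp3KO 3-month pair.

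Signs turned for APP/PS1 in microglia in HM alone (Ccl2 -0.11, Ccl7 -0.80) and without IEG (Ccl7 -0.85). For Nlrp3 deletion in border macrophages, Ccl2 became 0.032 with DESeq2, 0.0050 with its size factors, 0.012 without a filter, 0.10 without cells of a high doublet score and 0.37 in BAM Lyve1 alone. Ccl8 became 0.020, 0.0025, 0.0077 and 0.044 under the first 4 of these and 0.011 with additive covariates, and Ccl12 -0.046 without BAM Lyve1. For APP/PS1 in border macrophages, BAM Lyve1 alone gave -0.27 for Ccl2, -0.21 for Ccl7 and 0.47 for Ccl8, and Ccl7 was -0.055 with DESeq2 and -0.0074 with additive covariates. The Ccl2 ratio in PM was -0.49 without cells of a high doublet score.

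Leaving out a pair gave fold changes for Nlrp3 deletion of -0.016 to 0.36 for Ccl7 in microglia, and in border macrophages of -0.22 to 0.38 for Ccl2, -0.32 to 0.41 for Ccl8 and -0.010 to 0.41 for Ccl12. For APP/PS1 it gave -0.11 to 0.19 for Ccl7 in microglia, and in border macrophages -0.090 to 0.62 for Ccl2, -0.50 to 0.55 for Ccl7 and -0.90 to 0.0495 for Ccl8. The log2 Ccl2 ratio ranged from -0.0079 to 0.82 in IEG and from -0.075 to 0.41 in PM.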
